A study of Mus musculus with 75 samples.

Results

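Chemokine genes were followed through replicative senescence (RS) of mouse skin fibroblasts and through knockdown or overexpression of candidate regulators. The 10 members were taken by name from the chemokines of the senescence-associated secretory phenotype: the CC ligands Ccl2, Ccl7, Ccl8 and Ccl11, the CXC ligands Cxcl1, Cxcl2 and Cxcl5, and the CXC ligands Cxcl12, Cxcl14 and Cxcl16. They are 10 of the 24984 genes in the count tables. The choice was made by name, without a threshold on measured values, but with earlier results of these data known. Their RNA was read in 44 RNA-seq libraries, and accessible chromatin around them in 13 ATAC-seq samples, an assay in which a transposase cuts and tags open DNA.

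The passage libraries were made from cultured skin fibroblasts of 2-month-old female C57BL/6 mice at P1, P3, P5 and P7 (4 RNA libraries each; 4 ATAC samples at P1 and 3 at each later passage), and the study took P7 cells as senescent. In the E2f4_OE group a doxycycline-induced lentivirus carried E2f4 into pre-senescent P4 cells (2 libraries), against cells with an EGFP control vector (E2f4_OE_control, 2 libraries). E2f4_sh1 (3 libraries) carried an E2f4 hairpin in proliferating cells. Tead1_sh3 and Tead1_sh4 (3 each) carried Tead1 hairpins, and Atf3_sh5 and Atf3_sh6 (3 each) carried Atf3 hairpins. In its results the study calls the Atf3 cells pre-senescent and gives no state for the Tead1 cells. Its methods name a later passage than P4 for senescence interventions. Each hairpin experiment had 3 libraries with a non-targeting hairpin (E2f4_nt, Tead1_nt, Atf3_nt), and knockdown cells were selected with puromycin. All were C57BL/6 skin fibroblasts, the manipulated ones from newborn or 2-month-old mice, and the labels do not say which were used where. Nor do they say that replicates were separate cultures or animals, so p-values measure the spread between these libraries, which may be technical. Each library is a bulk culture, in which fewer cells of a type and less RNA per cell cannot be told apart.

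Library totals ran from 13430229 to 15725823 counts in the passage series and from 9147324 to 27552949 in the interventions. The targeted gene checked the labels. E2f4 stood at 1149 ± 43.8 CPM in E2f4_OE against 41.5 ± 8.55 CPM in its controls (SD, n = 2 each), and at 21.3 ± 0.776 CPM in E2f4_sh1 against 60.03 ± 0.703 CPM (SD, n = 3 each). Tead1 was at 279 ± 9.58 CPM with sh3 and 316 ± 3.64 CPM with sh4 against 541 ± 32.2 CPM (SD, n = 3 each). Atf3 was low throughout its own experiment, at 2.98 ± 0.289 CPM in the controls, 1.34 ± 0.831 CPM with sh5 and 1.72 ± 0.322 CPM with sh6 (SD, n = 3 each), and the sh6 difference did not pass the test (adjusted p = 0.114, edgeR quasi-likelihood, Benjamini-Hochberg), so the libraries labelled Atf3_sh6 were not checked by their target. All 10 fibroblast markers had counts in every library. Y-linked transcripts (Ddx3y, Eif2s3y, Kdm5d and Uty, chosen after their values were seen) were absent from the passage libraries and present in every intervention library. They summed to 15.6 to 20.3 CPM in E2f4_OE against 66.4 to 68.6 CPM in its controls, while the groups of each hairpin experiment differed less. Xist, the RNA of the inactive X chromosome, was at 555 to 685 CPM in E2f4_OE against 1150 to 1417 CPM in its controls.

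Chemokines are small secreted proteins that draw leukocytes along a gradient by binding G protein-coupled receptors. The CC ligands here act mainly on monocytes and eosinophils, and CXC ligands with the Glu-Leu-Arg (ELR) motif before their first cysteines draw neutrophils through Cxcr2. CXC ligands without that motif have other receptors and often homeostatic roles, such as the retention of hematopoietic cells by Cxcl12. Senescent fibroblasts are known for releasing chemokines together with interleukins and proteases, and NF-kB and C/EBP factors are known activators of many of these genes.

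The promoters were read first for what the members share. Promoter sequence, from 250 bases before to 50 bases after the start site, was available for 5 of the 10 members from RefSeq (GRCm38.p6, the mm10 build of the files). Letters in capitals are matches to 8 searched motifs, sought on both strands: AP-1 (TGAGTCA), CRE (TGACGTCA), TEAD (GGAATG), E2F (TTTCCCGC and TTTGGCGC), NF-kB (its 10-letter site with a free centre), C/EBP (TTGCNNAA) and the TATA box (TATAAA). NF-kB letters can match on both strands of the same stretch, and overlapping matches share their capitals. The Cxcl1 promoter (chr5:90890995-90891294, + strand) and the Cxcl2 promoter (chr5:90903649-90903948, + strand) are shown because both hold the same NF-kB match, while the RNA levels of these neighbours differed widely.

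Cxcl1: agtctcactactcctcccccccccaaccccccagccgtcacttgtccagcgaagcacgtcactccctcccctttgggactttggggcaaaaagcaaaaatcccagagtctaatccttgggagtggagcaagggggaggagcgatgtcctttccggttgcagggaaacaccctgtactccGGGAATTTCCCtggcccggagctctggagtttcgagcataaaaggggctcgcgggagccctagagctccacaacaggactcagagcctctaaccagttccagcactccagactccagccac

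Cxcl2: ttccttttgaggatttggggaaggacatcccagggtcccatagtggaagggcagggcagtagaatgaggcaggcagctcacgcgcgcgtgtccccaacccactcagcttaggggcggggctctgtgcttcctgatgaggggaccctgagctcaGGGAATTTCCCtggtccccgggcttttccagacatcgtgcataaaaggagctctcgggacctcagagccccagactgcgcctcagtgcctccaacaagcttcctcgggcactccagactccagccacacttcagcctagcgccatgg

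The match GGGAATTTCC began 71 bases before the Cxcl1 start site and 97 bases before the Cxcl2 start site, with the reverse-strand match GGAATTTCCC overlapping it in each. NF-kB letters occurred in 1.47% of all 32851 promoters of the same length. The Ccl8 promoter (chr11:82114935-82115234, + strand) and the Cxcl12 promoter (chr6:117168285-117168584, + strand) are shown because their promoter peaks ranked lower at P7 than at P1. Neither difference passed after adjustment (adjusted p = 0.0842 each, two-sided exact permutation test). For Cxcl12 it rested on how far an upstream peak reached, and the strongest summits of the Ccl8 peak lay outside the bases printed here. The Cxcl14 promoter (chr13:56296502-56296801, - strand) is shown because Cxcl14 RNA rose most.

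Ccl8: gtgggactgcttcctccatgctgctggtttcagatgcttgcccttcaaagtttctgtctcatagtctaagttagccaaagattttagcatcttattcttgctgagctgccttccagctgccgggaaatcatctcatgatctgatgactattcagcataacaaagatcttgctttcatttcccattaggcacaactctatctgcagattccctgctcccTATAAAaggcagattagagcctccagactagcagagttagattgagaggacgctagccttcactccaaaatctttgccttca

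Cxcl12: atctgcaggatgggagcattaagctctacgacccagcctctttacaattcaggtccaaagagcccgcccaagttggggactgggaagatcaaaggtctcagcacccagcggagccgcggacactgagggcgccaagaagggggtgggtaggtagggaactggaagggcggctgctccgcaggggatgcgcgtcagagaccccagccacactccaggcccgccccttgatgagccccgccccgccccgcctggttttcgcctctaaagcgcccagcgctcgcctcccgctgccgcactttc

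Cxcl14: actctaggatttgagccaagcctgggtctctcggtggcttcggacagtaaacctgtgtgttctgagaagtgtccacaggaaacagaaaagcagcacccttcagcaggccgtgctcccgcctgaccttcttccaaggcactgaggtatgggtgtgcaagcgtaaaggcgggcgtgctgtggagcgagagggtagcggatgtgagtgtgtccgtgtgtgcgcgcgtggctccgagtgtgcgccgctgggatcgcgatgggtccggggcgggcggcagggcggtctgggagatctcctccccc

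A TATA box began 32 bases before the Ccl8 start site, and 13.6% of all promoters held these letters. No searched motif was found in the Cxcl12 or Cxcl14 window, which says only that these letters were not in those 300 bases.

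Between the ends of the passage series the members did not move together. Between P1 and P7, Cxcl14 rose 11.7-fold, Cxcl12 fell to 0.166 times its P1 level, and Ccl11 and Cxcl16 fell to 0.361 and 0.408 times, while the other 5 tested members were not called. A gene was called at an adjusted p under 0.05 (edgeR quasi-likelihood test, Benjamini-Hochberg over all 13442 genes tested) with at least a doubling or halving, that is an absolute log2 fold change over 1. Of 9 members tested, 1 was called higher and 3 lower, where 8.1% of all genes were called higher and 13.3% lower. The median log2 fold change of the 9 members was 0.35, against -0.01 for all genes. Cxcl2 was not tested, because its counts were too low. DESeq2 called the same 4 members.

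**Figure D1:**
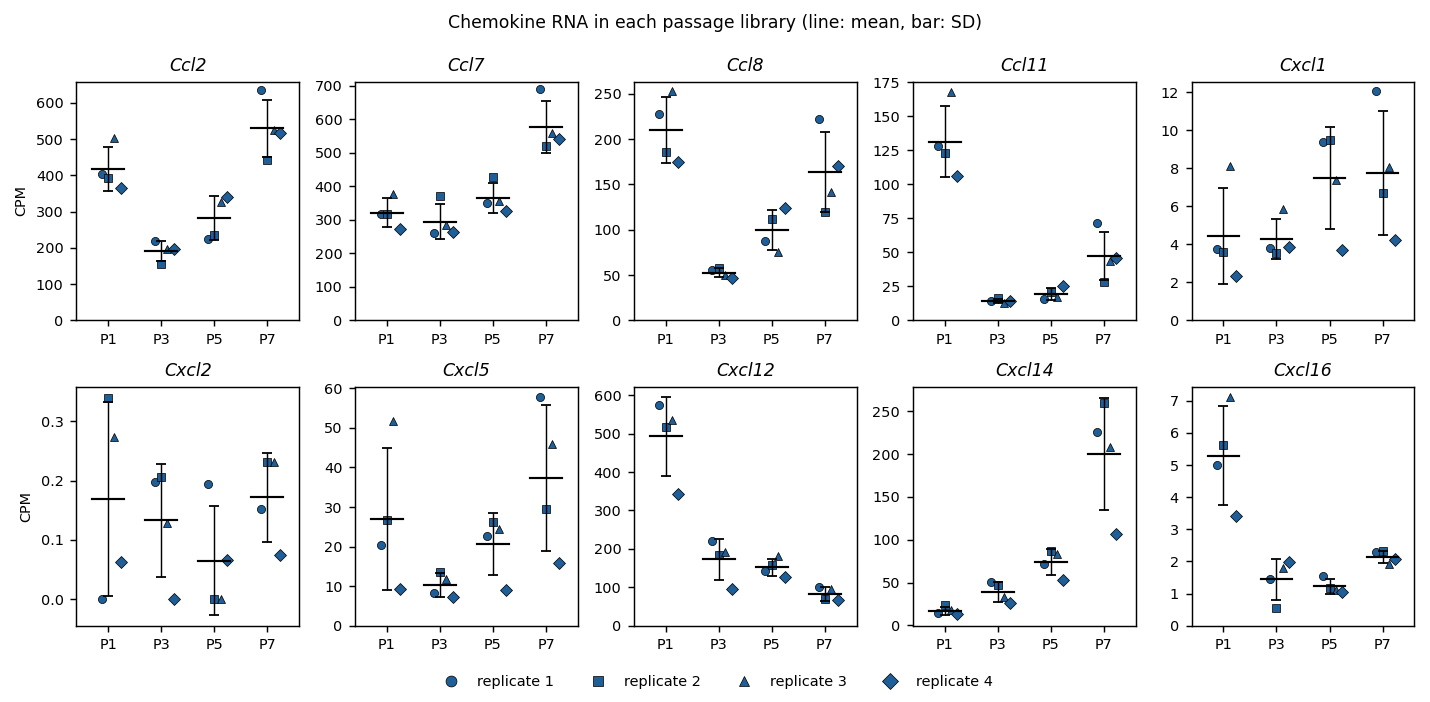
Level of each chemokine in the 16 passage libraries, in CPM, the counts scaled to a common library size (linear axis, a separate scale per gene), by passage, with 1 symbol per library and replicate, a line at the mean and a bar for the SD (n = 4). Cxcl14 is highest and Cxcl12 lowest at P7, Ccl8 and Ccl11 dip at P3, and Cxcl2 does not exceed 0.340 CPM.

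The mean levels of Ccl2, Ccl7, Ccl8, Ccl11, Cxcl1 and Cxcl5 were lowest at P3, not at either end of the series. Against P1, 6 members were called lower at P3 (Ccl2, Ccl8, Ccl11, Cxcl5, Cxcl12 and Cxcl16) and 1 higher (Cxcl14), where 6.58% of all genes were called lower and 2.4% higher. The median of the 9 members was -1.40 on the log2 scale, against 0.00 for all genes, and 1 of the 9 had a positive value. From P5 to P7, 2 members (Ccl11 and Cxcl14) were called higher and 0 lower, against 1.19% and 2.28% of all genes. The 9 members had a median of 0.81 against -0.01, and 8 of the 9 had a positive log2 fold change. Without P5 replicate 4, Ccl2 was also called higher from P5 to P7.

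No member was called between P3 and P5 by edgeR or by DESeq2, where edgeR called 0.841% of all genes higher and 3.05% lower. Unadjusted p-values under 0.05 were reached by 6 members and adjusted ones by 3 (Ccl2, Ccl8 and Cxcl14), all below the fold threshold. The shares of all genes passing these p cuts alone are not given here, so these 2 counts are not read as a result about the members. The count of called members rested on single libraries. Without P5 replicate 4, Cxcl1, Cxcl5 and Cxcl14 were called higher. Without P3 replicate 1 or 2, Cxcl14 alone was called, and without P5 replicate 3, Ccl8 alone.

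Markers of other skin cell types were also lower at the later passages. Summed levels of 15 macrophage markers ranged from 393 to 594 CPM at P1, 58.6 to 79.0 CPM at P3, 29.9 to 41.0 CPM at P5 and 38.5 to 63.0 CPM at P7, and all 15 were called lower at P3. The 8 endothelial markers summed to 163 to 177 CPM at P1, 39.5 to 45.4 CPM at P3 and 7.40 to 10.1 CPM at P7, and all 8 were called lower at P3. Keratinocyte markers summed to 71.1 to 454 CPM at P1, 3.22 to 5.56 CPM at P3, 4.01 to 7.74 CPM at P5 and 6.72 to 11.4 CPM at P7, with all 7 tested called lower at P3. The lymphocyte and mast cell markers were at 2.24 to 3.09 CPM at P1 and at or under 0.755 CPM later. Fibroblast markers summed to 22756 to 24669 CPM at P1 and 35503 to 38394 CPM at P7. Of these 10 markers, 2 were called higher and 3 lower at P7 against P1, with a median log2 fold change of 0.09. The part of these cells in the drop of Ccl2, Ccl8, Ccl11, Cxcl5, Cxcl12 and Cxcl16 between P1 and P3 was not tested. From P5 to P7, where Ccl11 and Cxcl14 rose, 1 of the 15 macrophage markers was called higher and 1 lower. Over the same step 0 of 7 keratinocyte markers were called, with a median log2 fold change of 1.42. The part of either in the rise of Ccl11 and Cxcl14 was not tested.

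Ccl2 (chr11:82035577-82037452, + strand), the main monocyte attractant acting through Ccr2, was abundant at every passage. Its level was 405, 393, 504 and 365 CPM in the P1 libraries, 218, 154, 197 and 197 CPM at P3, 225, 236, 327 and 341 CPM at P5, and 635, 443, 526 and 516 CPM at P7. All P3 libraries lay below all P1 libraries, and the P7 libraries overlapped the P1 libraries. Ccl2 fell by 1.12 on the log2 scale from P1 to P3 (SE 0.147, adjusted p = 8.4e-06, edgeR). Its log2 fold change was 0.91 from P5 to P7 (SE 0.146, adjusted p = 0.000237) and 0.35 from P1 to P7 (SE 0.145, adjusted p = 0.0430), both under the fold threshold.

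Ccl7 (chr11:82045712-82047525, + strand), a further ligand of Ccr2 encoded next to Ccl2, had its lowest mean at P3, but the difference from P1 did not pass the test. It stood at 316, 317, 379 and 272 CPM at P1, 259, 371, 285 and 265 CPM at P3, 350, 428, 358 and 327 CPM at P5, and 690, 520, 559 and 541 CPM at P7. The P7 libraries lay above every library of the earlier passages. The log2 fold change was -0.12 from P1 to P3 (SE 0.126, adjusted p = 0.481) and 0.85 from P1 to P7 (SE 0.126, adjusted p = 9.5e-06, edgeR), the latter past the p threshold and under the fold threshold.

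Ccl8 (chr11:82115185-82116799, + strand) lies at the far end of the same cluster and also attracts leukocytes. It measured 227, 186, 253 and 175 CPM at P1, 55.8, 57.5, 49.9 and 46.7 CPM at P3, 87.1, 112, 75.9 and 124 CPM at P5, and 223, 120, 142 and 170 CPM at P7. The P3 group lay below all others, and P7 overlapped both P1 and P5. Ccl8 fell by 2.00 on the log2 scale from P1 to P3 (SE 0.179, adjusted p = 7.9e-08, edgeR). From P1 to P7 its log2 fold change was -0.36 (SE 0.171, adjusted p = 0.0709), which did not pass the test.

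Ccl11 (chr11:82057832-82062955, + strand), or eotaxin, the eosinophil attractant that acts through Ccr3, had the deepest dip of the members. It was at 128, 123, 168 and 106 CPM at P1, 13.9, 16.5, 12.8 and 14.1 CPM at P3, 15.6, 21.2, 16.9 and 25.1 CPM at P5, and 71.4, 28.2, 43.9 and 46.0 CPM at P7. P1, P7 and P3 did not overlap one another, in that order from high to low, and every P7 library was above every P5 library. Ccl11 fell by 3.20 on the log2 scale from P1 to P3 (SE 0.221, adjusted p = 3.9e-09), rose by 1.27 from P5 to P7 (SE 0.211, adjusted p = 0.000349), and at P7 was still 1.47 lower than at P1 (SE 0.203, adjusted p = 3.7e-06, edgeR). Ccl12, the neighbour between Ccl11 and Ccl8, did not exceed a mean of 0.336 CPM at any passage and was not tested.

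Among the ELR ligands, Cxcl5 (chr5:90759298-90761625, + strand) was the most abundant, and it varied widely between replicates. It was at 20.5, 26.7, 51.7 and 9.28 CPM at P1, 8.15, 13.6, 11.9 and 7.31 CPM at P3, 22.7, 26.2, 24.5 and 9.002 CPM at P5, and 57.9, 29.4, 46.0 and 15.96 CPM at P7. Replicate 4 was the lowest at every passage, and P1 overlapped each later passage. Cxcl5 fell by 1.40 on the log2 scale from P1 to P3 (SE 0.436, adjusted p = 0.0187, edgeR). This call was lost without P1 replicate 3 or without P3 replicate 4. Its difference between P1 and P7 was 0.47 (SE 0.409, adjusted p = 0.332), which did not pass.

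Cxcl1 (chr5:90891245-90893121, + strand), also a Cxcr2 ligand, was scarce. Its level was 3.77, 3.602, 8.13 and 2.35 CPM at P1, 3.81, 3.57, 5.87 and 3.88 CPM at P3, 9.37, 9.47, 7.37 and 3.71 CPM at P5, and 12.1, 6.71, 8.07 and 4.23 CPM at P7. Groups overlapped at each step, and Cxcl1 was called in no passage comparison with all libraries (log2 fold change from P1 to P7 0.80, SE 0.353, adjusted p = 0.0543, edgeR). Without P1 replicate 3, its highest library there, or without P7 replicate 4, its lowest, Cxcl1 was called higher at P7 than at P1. Cxcl2 (chr5:90903899-90905938, + strand), the third Cxcr2 ligand of this locus, was at 0 to 0.340 CPM in the passage libraries and reached at most 0.871 CPM in any of the 44 libraries. A difference in Cxcl2 was not detectable at this depth.

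Cxcl12 (chr6:117168535-117181368, + strand), the ligand of Cxcr4, was highest at P1 and lowest at P7. Its level was 575, 517, 536 and 343 CPM at P1, 220, 185, 191 and 94.6 CPM at P3, 141, 158, 180 and 126 CPM at P5, and 99.8, 68.3, 94.4 and 65.5 CPM at P7. All P1 libraries were above all later ones, P3 and P5 overlapped, and all P7 libraries were below all P5 libraries. Replicate 4 was the lowest at every passage. Cxcl12 fell by 1.51 on the log2 scale from P1 to P3 (SE 0.210, adjusted p = 1.7e-05) and by 2.59 from P1 to P7 (SE 0.219, adjusted p = 5.1e-09, edgeR). The difference of -0.89 from P5 to P7 (SE 0.210, adjusted p = 0.00642) was under the fold threshold.

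Cxcl14 (chr13:56288643-56296811, - strand), a chemokine made by many epithelial and stromal cells, took the opposite course. It stood at 14.2, 23.3, 17.9 and 12.8 CPM at P1, 51.0, 47.5, 33.3 and 25.8 CPM at P3, 71.8, 87.3, 83.5 and 53.5 CPM at P5, and 226, 259, 209 and 107 CPM at P7. No passage overlapped another, and replicate 4 was the lowest of each. Cxcl14 rose by 1.21 on the log2 scale from P1 to P3 (SE 0.259, adjusted p = 0.00133), by 1.43 from P5 to P7 (SE 0.243, adjusted p = 0.000399) and by 3.55 from P1 to P7 (SE 0.270, adjusted p = 1.1e-09, edgeR).

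Cxcl16 (chr11:70454389-70459984, - strand), a ligand of Cxcr6 made as a transmembrane protein and shed by Adam10, had the lowest level per exon length of the 9 tested members at every passage. Its level was 4.9997, 5.64, 7.11 and 3.40 CPM at P1, 1.45, 0.549, 1.81 and 1.97 CPM at P3, 1.55, 1.18, 1.10 and 1.06 CPM at P5, and 2.29, 2.31, 1.92 and 2.08 CPM at P7. P1 lay above all later passages. Cxcl16 fell by 1.87 on the log2 scale from P1 to P3 (SE 0.286, adjusted p = 5.0e-05) and by 1.29 from P1 to P7 (SE 0.276, adjusted p = 0.000449, edgeR). Its counts are uncertain, because 552 of its exonic bases overlap Zmynd15 on the other strand and reads were counted without strand.

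Scaled by exon length, the 4 CC ligands led the order of levels at P1, with Ccl2 at 517 ± 75.4, Ccl8 at 412 ± 71.0, Ccl7 at 401 ± 54.6 and Ccl11 at 122 ± 24.2 CPM per kb (SD, n = 4). Below them came Cxcl12 at 68.8 ± 14.3, Cxcl5 at 16.3 ± 10.9, Cxcl14 at 5.46 ± 1.503, Cxcl1 at 4.67 ± 2.65, Cxcl16 at 2.92 ± 0.847 and Cxcl2 at 0.156 ± 0.151 CPM per kb. At P1 neighbours in this order overlapped from Ccl2 to Ccl7 and from Cxcl5 to Cxcl16, and the others were separate. At P7 the order was Ccl7 at 721 ± 96.0, Ccl2 at 658 ± 98.2, Ccl8 at 320 ± 87.1, Cxcl14 at 64.0 ± 21.1, Ccl11 at 44.2 ± 16.6, Cxcl5 at 22.5 ± 11.1, Cxcl12 at 11.5 ± 2.46, Cxcl1 at 8.13 ± 3.43, Cxcl16 at 1.19 ± 0.103 and Cxcl2 at 0.159 ± 0.0693 CPM per kb. Cxcl14 moved from the seventh to the fourth place and Cxcl12 from the fifth to the seventh. At P7 Ccl7 and Ccl2 overlapped, as did each pair of neighbours from Cxcl14 to Cxcl1.

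Among the members, the log2 levels of Ccl8 and Ccl11 went together most closely over the 16 passage libraries (Pearson r = 0.919), followed by Ccl2 and Ccl8 (r = 0.863), and Cxcl12 and Cxcl14 ran opposite (r = -0.805). These values describe libraries that share passages, so they carry no test. Over all tested genes outside the members, Ctsb and Ctsh, which encode the lysosomal proteases cathepsin B and cathepsin H, were the most alike to both Ccl8 (r = 0.965 and 0.919) and Ccl11 (r = 0.956 and 0.941). The closest to Cxcl12 were A230050P20Rik (r = 0.986) and Ggt5 (r = 0.983), and the closest to Cxcl14 were Stom (r = 0.978) and Mcfd2 (r = 0.971). Ccl2 was most alike to Paqr7 (r = 0.961) and Slc22a17 (r = 0.934), Ccl7 to Cd302 (r = 0.952) and Ginm1 (r = 0.943), and Cxcl5 to Gda (r = 0.917) and Ttc39c (r = 0.912). The closest to Cxcl16 were Gldc (r = 0.918) and Creg2 (r = 0.909), and to Cxcl1 Emb (r = 0.850) and Rnf113a2 (r = 0.838).

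Other genes of the chemokine system changed in both directions between P1 and P7. Of 10 tested ligands outside the members, 3 were called higher and 4 lower, with a median log2 fold change of 0.07. Ccl6 went from 2622 counts over the 4 P1 libraries to 5 over the P7 libraries, Ccl3 from 179 to 4 and Ccl9 from 1602 to 123, whereas Ppbp, a further ELR ligand of the Cxcl5 locus, went from 1 count to 405. Of 7 tested receptors, 2 were called higher and 4 lower (median -1.90), with Cxcr4, the receptor of Cxcl12, going from 380 counts to 3, Ccr1 at -3.17, Ackr4 at -2.93 and Xcr1 at 2.22. Of 7 tested processing enzymes, 0 were higher and 2 lower (median -0.24), namely Mmp12 at -7.33 and Dpp4, which trims Cxcl12, at -3.65. Of 17 tested upstream regulators, 3 were called higher and 0 lower (median -0.02), with Il6 at 2.21, Cebpd at 1.93 and Ikbkg at 1.04. The macrophage marker sums given above fell over the same passages, and their part in the drop of Ccl3, Ccl6, Ccl9, Ccr1 and Mmp12 was not tested.

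The same lists were counted at each step. At P3 against P1, 2 of the 10 other ligands were called higher and 3 lower, 0 and 3 of the 7 receptors, 0 and 2 of the 7 enzymes, and 1 and 0 of the 17 regulators. From P3 to P5 only Ccl6 (-2.60), Cxcr4 (-2.27) and Mmp12 (-3.09) of these lists were called, all lower. From P5 to P7, Ppbp (4.03), Cxcl3 (1.80), Cxcr6 (2.68) and Il6 (1.18) were called higher, and Ackr1 (-1.56) lower.

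With E2f4 overexpression the ELR ligands Cxcl1 and Cxcl5 were higher and Ccl7 was lower. Of 7 tested members, 3 were called higher (Cxcl1, Cxcl5, Cxcl16) and 1 lower (Ccl7), where 7.69% of all 13199 genes tested were called higher and 10.4% lower. The median log2 fold change was 0.47 over the members and 0.01 over all genes. Ccl8, Ccl11 and Cxcl2 were too low to test here, each at or under 0.526 CPM in all 4 libraries. Beside these results stand the Y-linked transcripts and Xist given above. Keratinocyte markers summed to 22.5 to 22.7 CPM in E2f4_OE against 10.6 to 13.7 CPM in the controls, with 2 of 3 tested called higher and 1 lower. Of 10 fibroblast markers 2 were called higher and 0 lower, and of 4 tested macrophage markers 1 was called higher and 0 lower. The part of any of these in the chemokine results was not tested.

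**Figure D2:**
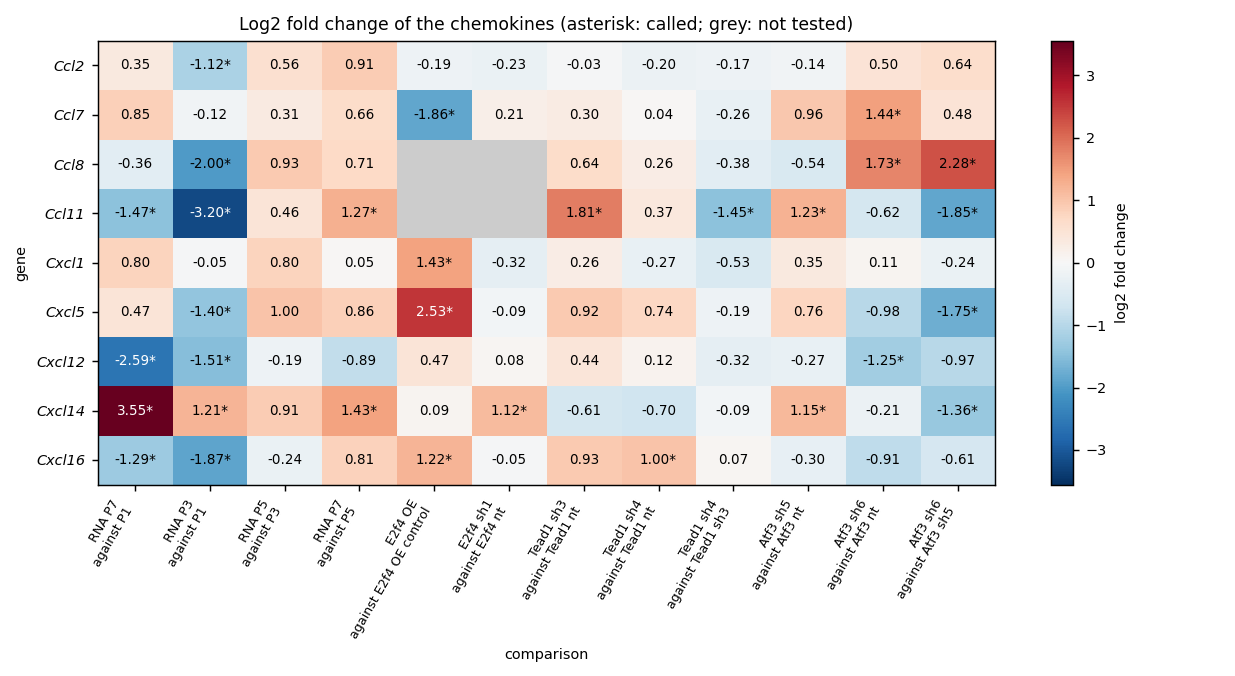
Log2 fold change (edgeR) of the 9 tested chemokines in each comparison, in rows by gene and columns by comparison, coloured from blue (lower in the first group) to red (higher), with an asterisk where the change was called and grey where the gene was not tested. The deepest red is Cxcl14 at P7 against P1 (3.55) and the deepest blue Ccl11 at P3 against P1 (-3.20).

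Cxcl5 was at 43.6 and 46.8 CPM in E2f4_OE against 9.26 and 6.22 CPM in the controls, and Cxcl1 at 5.45 and 5.59 CPM against 1.96 and 2.13 CPM. Neither pair of groups overlapped. Cxcl5 rose by 2.53 on the log2 scale (SE 0.177, adjusted p = 4.9e-06) and Cxcl1 by 1.43 (SE 0.226, adjusted p = 0.000375, edgeR). Ccl7 was at 22.2 and 21.3 CPM against 92.5 and 64.7 CPM and fell by 1.86 (SE 0.164, adjusted p = 1.6e-05). Cxcl16 was at 3.67 and 3.73 CPM against 0.830 and 2.48 CPM, with control libraries that lay far apart, and rose by 1.22 (SE 0.391, adjusted p = 0.0204). The Cxcl16 call was lost without E2f4_OE_control replicate 1, the lower control library, and Ccl8 then entered the test and was called higher.

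The monocyte attractant Ccl2, at 39.3 and 37.8 CPM against 42.9 and 45.2 CPM, did not pass the test (log2 fold change -0.19, adjusted p = 0.175). Cxcl12 was at 351 and 353 CPM against 251 and 257 CPM (log2 fold change 0.47, adjusted p = 0.00205), under the fold threshold, and Cxcl14 at 45.9 and 52.6 CPM against 43.3 and 49.5 CPM (0.09, adjusted p = 0.572). Among regulators, 4 of 17 were called higher and 1 lower, with Cebpd at 2.201, Cebpb at 1.75, Relb at 1.46 and Ikbkg at -1.38. Of 8 other ligands 2 were called higher, Ppbp (2.21) and Cx3cl1 (1.12), and of 4 receptors Ccr10 (1.94) was higher and Cxcr6 (-1.53) and Xcr1 (-1.03) lower.

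With E2f4 knockdown Cxcl14 was the 1 member called, among the 7 tested. Cxcl14 was at 68.6, 63.5 and 71.8 CPM in E2f4_sh1 against 32.1, 30.3 and 31.4 CPM in E2f4_nt, without overlap, and rose by 1.12 on the log2 scale (SE 0.0866, adjusted p = 1.6e-06, edgeR). In all 12310 genes tested, 1.46% were called higher and 0.211% lower. Cxcl12 was at 94.3, 94.9 and 104.2 CPM against 90.9, 94.0 and 92.7 CPM (log2 fold change 0.08, adjusted p = 0.479). The log2 fold change was -0.23 for Ccl2 (adjusted p = 0.104), 0.21 for Ccl7 (adjusted p = 0.0809) and -0.32 for Cxcl1 (adjusted p = 0.330). It was -0.09 for Cxcl5 (adjusted p = 0.587) and -0.05 for Cxcl16 (adjusted p = 0.938). Macrophage markers summed to 19.4 to 24.9 CPM in E2f4_sh1 against 9.75 to 15.1 CPM in E2f4_nt, with 2 of the 4 tested called higher. Fibroblast markers summed to 27153 to 30478 CPM against 35598 to 36689 CPM, with 0 of 10 called. The part of either in the rise of Cxcl14 was not tested.

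**Figure D3:**
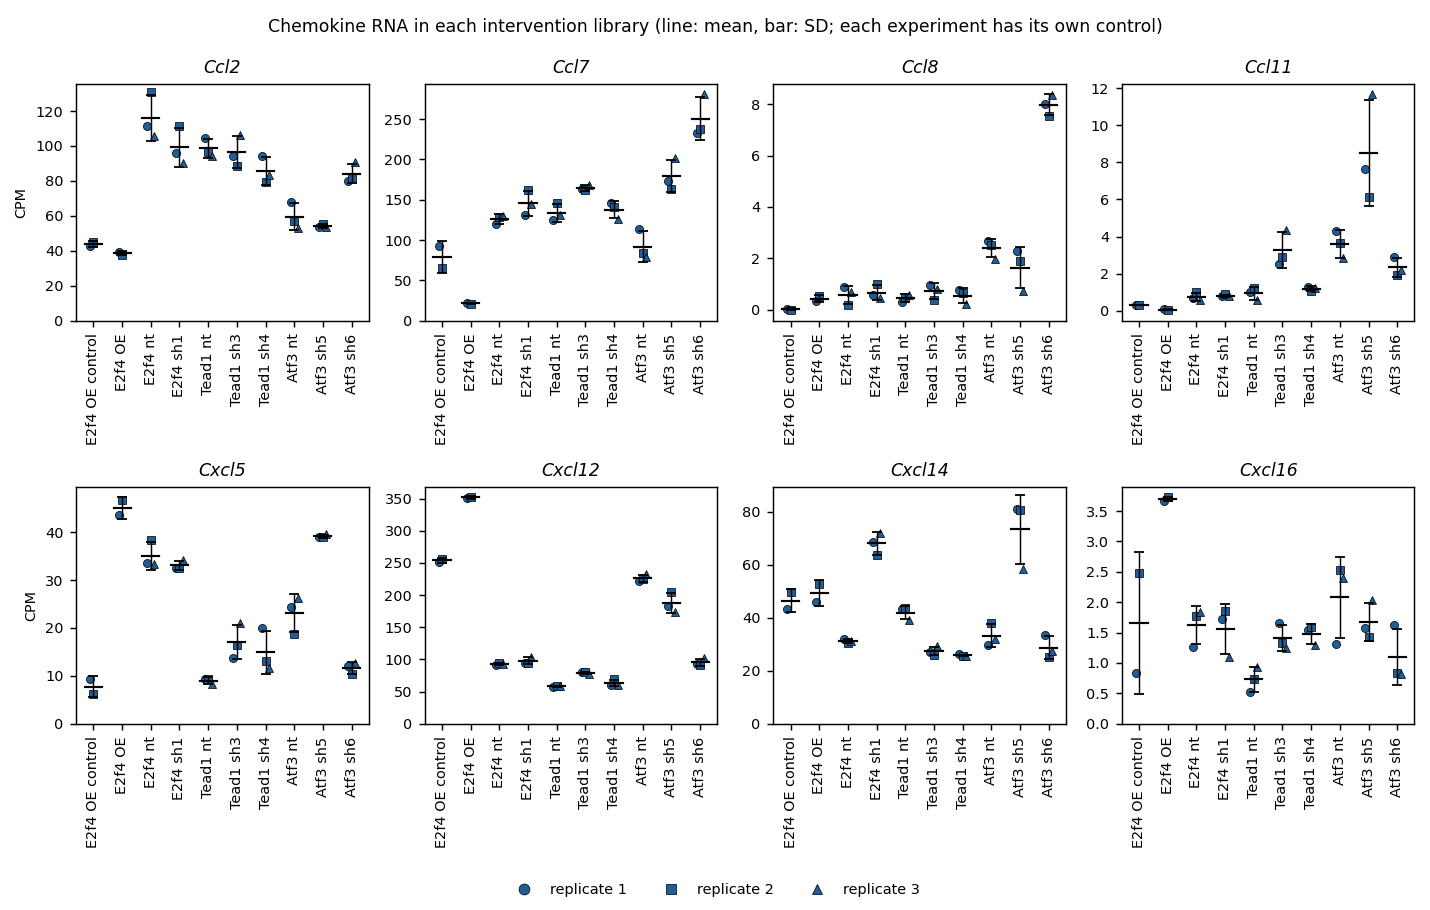
Level of 8 chemokines in the 28 intervention libraries, in CPM (linear axis, a separate scale per gene), by group, with 1 symbol per library, a line at the mean and a bar for the SD (n = 2 in the E2f4 overexpression groups, n = 3 elsewhere). Cxcl5 is high in E2f4 OE and Atf3 sh5, Cxcl14 in E2f4 sh1 and Atf3 sh5, and Ccl8 in Atf3 sh6. Levels are comparable only within an experiment, and Cxcl1 and Cxcl2 are left out.

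Each Tead1 hairpin led to 1 called member, and not the same one. The hairpins' comparisons share the 3 Tead1_nt libraries and their target sequences overlap, so they are not independent. With Tead1_sh3 1 of 9 members was called higher and 0 lower, where 1.99% of all 13012 genes tested were called higher and 0.722% lower. With Tead1_sh4 also 1 of 9 was called higher and 0 lower, against 1.01% and 0.523% of all genes. The members' median log2 fold change was 0.44 with sh3 and 0.12 with sh4, against 0.00 over all genes in each. Macrophage markers summed to 12.9 to 15.1 CPM in Tead1_nt, 10.4 to 12.2 CPM with sh3 and 11.6 to 15.8 CPM with sh4, with 2 of 5 called lower with sh3 and 0 with sh4. Their part in the differences was not tested.

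Ccl11 was at 2.51, 2.92 and 4.35 CPM with sh3, 1.29, 1.05 and 1.24 CPM with sh4, and 0.983, 1.25 and 0.569 CPM with the control hairpin. Only the sh3 libraries lay apart. Ccl11 rose by 1.81 on the log2 scale with sh3 (SE 0.308, adjusted p = 2.1e-05, edgeR), and its value with sh4 was 0.37 (SE 0.353, adjusted p = 0.484). Tested directly, sh4 was 1.45 lower than sh3 (SE 0.294, adjusted p = 0.00154), the 1 member called between the hairpins, where 0.0231% of all genes were called higher and 0.246% lower.

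Cxcl16 was at 1.55, 1.60 and 1.29 CPM with sh4, 1.65, 1.32 and 1.25 CPM with sh3, and 0.520, 0.737 and 0.931 CPM in the controls. Both hairpin groups lay above the controls, and only sh4 passed the fold threshold (1.00, SE 0.345, adjusted p = 0.0279, against 0.93, SE 0.350, adjusted p = 0.0372, edgeR). The sh4 call was lost without sh4 replicate 1 or 2, without Tead1_nt replicate 1 or 2, with the replicate number as a block, and with at least 10 counts required in every library. The Tead1_sh3 count became 2 without sh3 replicate 1 (Cxcl5 added) or without Tead1_nt replicate 3 (Cxcl16 added).

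Cxcl5 was at 13.8, 16.4 and 21.0 CPM with sh3 and 20.05, 13.1 and 11.7 CPM with sh4, against 9.36, 9.41 and 8.27 CPM, and neither hairpin group overlapped the controls. Its log2 fold change was 0.92 (SE 0.154, adjusted p = 1.5e-05) and 0.74 (SE 0.155, adjusted p = 0.000471, edgeR), both under the fold threshold. Cxcl14 ran opposite to its course with passaging, at 27.1, 25.9 and 29.2 CPM with sh3 and 26.1, 25.5 and 25.5 CPM with sh4, against 43.1, 43.7 and 38.9 CPM (log2 fold change -0.61, SE 0.0694, adjusted p = 2.2e-08, and -0.70, SE 0.0696, adjusted p = 2.7e-09). These differences of Cxcl14 were also under the fold threshold. Cxcl12 differed from the controls by 0.44 with sh3 (adjusted p = 1.7e-07) and by 0.12 with sh4 (adjusted p = 0.128). The value for Ccl7 was 0.30 with sh3 (adjusted p = 4.0e-05) and 0.04 with sh4 (adjusted p = 0.608), and for Ccl2 -0.03 (adjusted p = 0.751) and -0.20 (adjusted p = 0.0152). Ccl8 was at 0.64 with sh3 (adjusted p = 0.349) and 0.26 with sh4 (adjusted p = 0.760), and Cxcl1 at 0.26 (adjusted p = 0.342) and -0.27 (adjusted p = 0.378). Cxcl12, Ccl7, Ccl2, Ccl8 and Cxcl1 all stayed under the fold threshold with both hairpins.

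In the remaining lists, Ppbp fell with both Tead1 hairpins (by 1.23 and 1.51 on the log2 scale), from 6.82 to 7.28 CPM in the controls to 1.94 to 3.76 CPM with sh3 and 2.21 to 2.83 CPM with sh4. Cxcl10, an interferon-induced Cxcr3 ligand, was called higher with sh3 (1.96) and lower in sh4 than in sh3 (-2.06), and Xcr1 was called lower with sh4 (-1.49).

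The members called with one Atf3 hairpin were not those called with the other. Both Atf3 comparisons share the 3 Atf3_nt libraries. With Atf3_sh5, Ccl11 and Cxcl14 were called higher and no member lower, where 1.38% of all 13345 genes tested were called higher and 3.82% lower. With Atf3_sh6, Ccl7 and Ccl8 were called higher and Cxcl12 lower, where 4.83% were called higher and 10.9% lower. The members' median log2 fold change was 0.35 with sh5 and -0.21 with sh6, against -0.03 and -0.02 over all genes. Fibroblast markers summed to 39158 to 40863 CPM in Atf3_nt, 25469 to 37750 CPM in sh5 and 17113 to 17964 CPM in sh6, with 5 of 10 called lower in sh6 and 0 in sh5. Their part in the differences was not tested.

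Ccl7 was at 173, 164 and 202 CPM with sh5 and 233, 237 and 281 CPM with sh6, against 113, 83.5 and 79.0 CPM. All hairpin libraries lay above all controls. Ccl7 rose by 1.44 on the log2 scale with sh6 (SE 0.144, adjusted p = 1.8e-05, edgeR), and its value with sh5 was 0.96 (SE 0.143, adjusted p = 0.00121), just under the fold threshold. Without sh5 replicate 2 or without Atf3_nt replicate 1, Ccl7 was also called with sh5. Ccl8 was at 8.02, 7.55 and 8.37 CPM with sh6, 2.27, 1.89 and 0.733 CPM with sh5, and 2.67, 2.52 and 1.99 CPM in the controls, and rose by 1.73 with sh6 (SE 0.290, adjusted p = 0.000637). Ccl2 with sh6 was at 80.2, 81.8 and 90.6 CPM against 68.1, 57.2 and 53.3 CPM (0.50, adjusted p = 0.00178), and its value with sh5 was -0.14 (adjusted p = 0.286).

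Ccl11 was at 7.64, 6.14 and 11.7 CPM with sh5, 2.91, 1.92 and 2.21 CPM with sh6, and 4.33, 3.68 and 2.82 CPM in the controls. It rose by 1.23 with sh5 (SE 0.265, adjusted p = 0.00654, edgeR). Without sh5 replicate 3, the highest library, Ccl11 was no longer called and Cxcl14 was the 1 member called. Cxcl14 was at 81.0, 80.6 and 58.3 CPM with sh5, 33.4, 25.2 and 27.3 CPM with sh6, and 29.6, 38.0 and 31.8 CPM in the controls, and rose by 1.15 with sh5 (SE 0.156, adjusted p = 0.000818).

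Cxcl12 was at 93.3, 91.0 and 102 CPM with sh6 and 184, 205 and 174 CPM with sh5, against 222, 224 and 233 CPM. The groups did not overlap, and Cxcl12 fell by 1.25 with sh6 (SE 0.0811, adjusted p = 1.1e-06, edgeR). Cxcl5 went in opposite directions, at 39.1, 39.0 and 39.6 CPM with sh5 and 12.0, 10.3 and 12.8 CPM with sh6, around 24.4, 18.7 and 26.2 CPM in the controls. Its log2 fold change against the controls was 0.76 (adjusted p = 0.00244) and -0.98 (adjusted p = 0.000184), both under the fold threshold. Without sh6 replicate 3 or without Atf3_nt replicate 2, Cxcl5 was called lower with sh6. Cxcl16 was at -0.30 with sh5 (adjusted p = 0.504) and -0.91 with sh6 (adjusted p = 0.0571), and was called lower with sh6 without sh6 replicate 1 or without Atf3_nt replicate 1. Cxcl1 was at 0.35 with sh5 (adjusted p = 0.278) and 0.11 with sh6 (adjusted p = 0.738).

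Between the hairpins, 1 member was called higher in sh6 than in sh5 and 3 lower, where 6.36% of all genes were called higher and 9.39% lower. Ccl8 was higher by 2.28 on the log2 scale (SE 0.305, adjusted p = 0.000152), and Ccl11 was lower by 1.85 (SE 0.281, adjusted p = 0.000353), Cxcl5 by 1.75 (SE 0.137, adjusted p = 4.3e-06) and Cxcl14 by 1.36 (SE 0.158, adjusted p = 5.8e-05, edgeR). Cxcl12 was also called lower without sh5 replicate 3, without sh6 replicate 3, and with at least 10 counts required in every library. Il6 rose with both hairpins (1.67 with sh5 and 2.64 with sh6), as did Nfkbiz (1.15 and 1.34). With sh6, Cxcl3 (2.39), Ccl9 (1.33), Zfp36 (1.48) and Mmp12 (2 counts over the controls and 57 over sh6) were also called higher, and Ccl27a (-1.02) and Cxcr6 (-1.49) lower. Mmp9 was called lower with sh5 (-1.15).

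Ccl8 and Ccl11 were lower in every intervention library than in any passage library. Ccl8 reached at most 8.37 CPM in the 28 intervention libraries, and ranged from 46.7 to 253 CPM in the 16 passage libraries. Ccl11 reached at most 11.7 CPM, with Atf3_sh5, against 12.8 to 168 CPM, so that its ranges lay close to each other. These experiments were scaled separately and differ in the source of the cells, so no test was made.

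Accessibility at the chemokine promoters was compared by peak rank. The deposited peak lists hold no read counts and their depth is unknown, so the strength of a peak was taken as the percentile of its -log10 p among all peaks of its sample, with 0 where no peak lay within 1000 bases of the start site. Samples held 168982 to 186562 peaks at P1, 142384 to 155681 at P3, 182402 to 207965 at P5 and 200376 to 231558 at P7. Of the 10 promoters, 2 were lower at P7 without overlap (Ccl8 and Cxcl12) and 0 higher, where 29.6% of all 17825 promoters with a peak were lower without overlap and 13.5% higher. With 4 samples against 3, the exact permutation test cannot go below 0.0286, and the smallest adjusted p over all promoters was 0.0842. The count depended on the ranking and on single samples. With an equal number of the strongest peaks taken from every sample, 5 promoters were lower (Ccl2, Ccl8, Ccl11, Cxcl1 and Cxcl12), and the same 5 were lower without P1 replicate 1. Without P7 replicate 2, Ccl2, Ccl7, Ccl8, Ccl11 and Cxcl12 were lower and Cxcl2 higher. The shares of all promoters under these alternatives are not given here, and with fewer samples groups separate more easily at any promoter. These alternative counts are therefore not read as a result about the members.

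**Figure D4:**
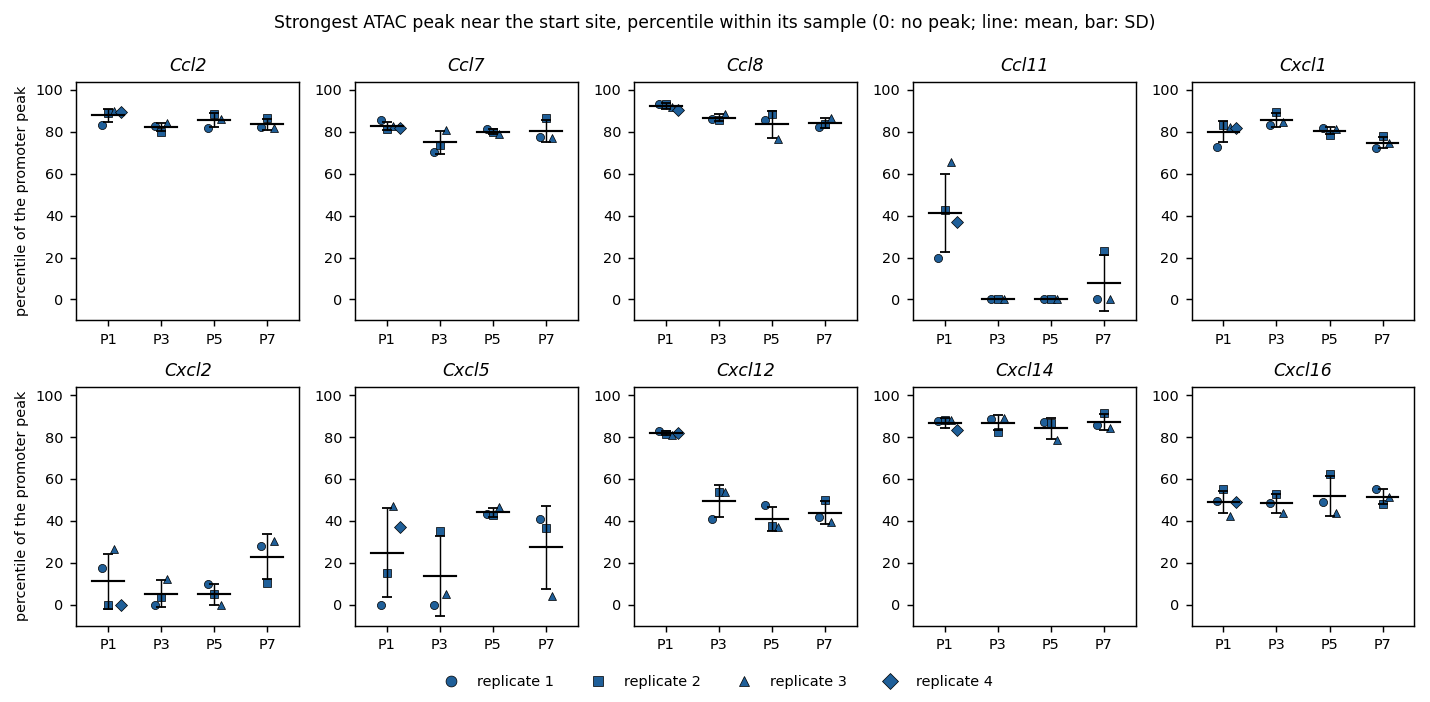
Percentile, within its sample, of the strongest ATAC peak within 1000 bases of each start site (0: no peak), by passage, with 1 symbol per sample, a line at the mean and a bar for the SD (n = 4 at P1, n = 3 later). Cxcl12 drops from 81.0 to 83.1 at P1 to 39.6 to 50.2 at P7, where the peak of an upstream summit reached into the window only at P1. Ccl11 has a peak in all P1 samples and in 1 of 9 later ones.

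The Ccl8 promoter peak stood at percentiles 93.1, 93.5, 91.7 and 90.4 at P1 and 82.2, 83.6 and 86.7 at P7, a difference of -7.99 (two-sided exact permutation p = 0.0286, adjusted p = 0.0842). P3 (86.3, 85.6 and 88.6) and P5 (85.7, 88.5 and 76.4) also lay below P1. In 11 of the 13 samples, all those of P1 and P7 among them, the strongest summit of this peak lay 1024 to 1056 bases after the start site, outside the 1000-base window. Among the summits inside the window the strongest lay 676 to 703 bases after the start site, outside the printed promoter, at 89.9 to 92.2 at P1 and 76.6 to 83.3 at P7, without overlap. The groups overlapped when peaks were ranked by fold enrichment.

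The difference at Cxcl12 rested on how far 1 peak reached. Percentiles were 83.1, 81.5, 81.0 and 82.0 at P1 and 41.9, 50.2 and 39.6 at P7 (difference -38.0, two-sided exact permutation p = 0.0286, adjusted p = 0.0842). At P1 the peak of a summit 1487 to 1515 bases upstream ended inside the 1000-base window, between 986 bases before and 549 bases after the start site, whereas in every later sample it ended 1044 to 1102 bases before it. That upstream summit was at percentiles 84.1 to 86.5 at P1 and 77.8 to 88.9 at P7. With each summit taken on its own, the Cxcl12 promoter was at 50.9 to 64.0 at P1 and 42.2 to 52.1 at P7, which overlapped (difference -8.99, exact permutation p = 0.114), and with a window of 2000 bases its difference was 0.731. The merged region over the start site, which also takes in the upstream summit, was at like means at P1 and P7, as the plot of the loci shows.

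Ccl11 had a promoter peak in all 4 P1 samples, at percentiles 19.98, 42.8, 65.4 and 36.9, in no P3 or P5 sample, and in 1 of 3 P7 samples, at 23.2. The groups overlapped because of that sample (exact permutation p = 0.0857). Cxcl14 kept a strong promoter peak throughout, at 83.4 to 88.3 at P1 and 84.5 to 91.7 at P7 (difference 0.43, exact permutation p = 0.857), while its RNA rose 11.7-fold. Ccl2, Ccl7 and Cxcl1 also kept strong peaks, at 81.9 to 86.6, 77.3 to 86.5 and 72.4 to 77.9 at P7, and their groups overlapped with P1 when all samples and all peaks were used, with the exceptions named above. Cxcl16 was near the middle, at 42.4 to 55.2 at P1 and 48.2 to 55.1 at P7.

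Cxcl2 and Cxcl5 had weak or missing promoter peaks. Cxcl2 was at 17.6, 0, 26.8 and 0 at P1 and 28.2, 10.5 and 30.3 at P7, and Cxcl5 at 0, 15.4, 47.0 and 37.2 at P1 and 40.8, 36.8 and 4.4 at P7. Both overlapped between passages. Cxcl1 and Cxcl2, which share the NF-kB match shown above, thus had promoter peaks of unlike strength. Of 9 tested promoters of macrophage markers, 4 were higher at P7 without overlap and 0 lower. The median percentile of this list was 0 at P1 and 19.2 at P7. Of 4 tested promoters of keratinocyte markers 0 were higher and 0 lower, and 1 of 5 endothelial markers was lower (Kdr). Of 3 lymphocyte and mast cell markers 1 was lower (Kit), and 5 of 10 fibroblast markers were lower and 0 higher. Over all promoters 13.5% were higher and 29.6% lower without overlap.

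Around the promoters, 129 merged peak regions lay within 50000 bases of the members, of which 128 had a peak in at least 1 P1 or P7 sample. Of these, 25 were stronger at P7 without overlap and 15 weaker, where 29.2% of all 217584 regions were stronger and 9.61% weaker. Stronger and weaker here mean a higher or lower rank within the sample, and the peak lists of P7 were longer than those of P1, so this split depended on the scaling. When each sample was limited to an equal number of its strongest peaks, 13 of 108 were stronger and 26 weaker, where 18.6% of all regions were stronger and 20.3% weaker. The median difference between P7 and P1 was 2.29 percentile points over the chemokine regions and 6.10 over all regions. The smallest adjusted p over all regions was 0.0981.

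**Figure D5:**
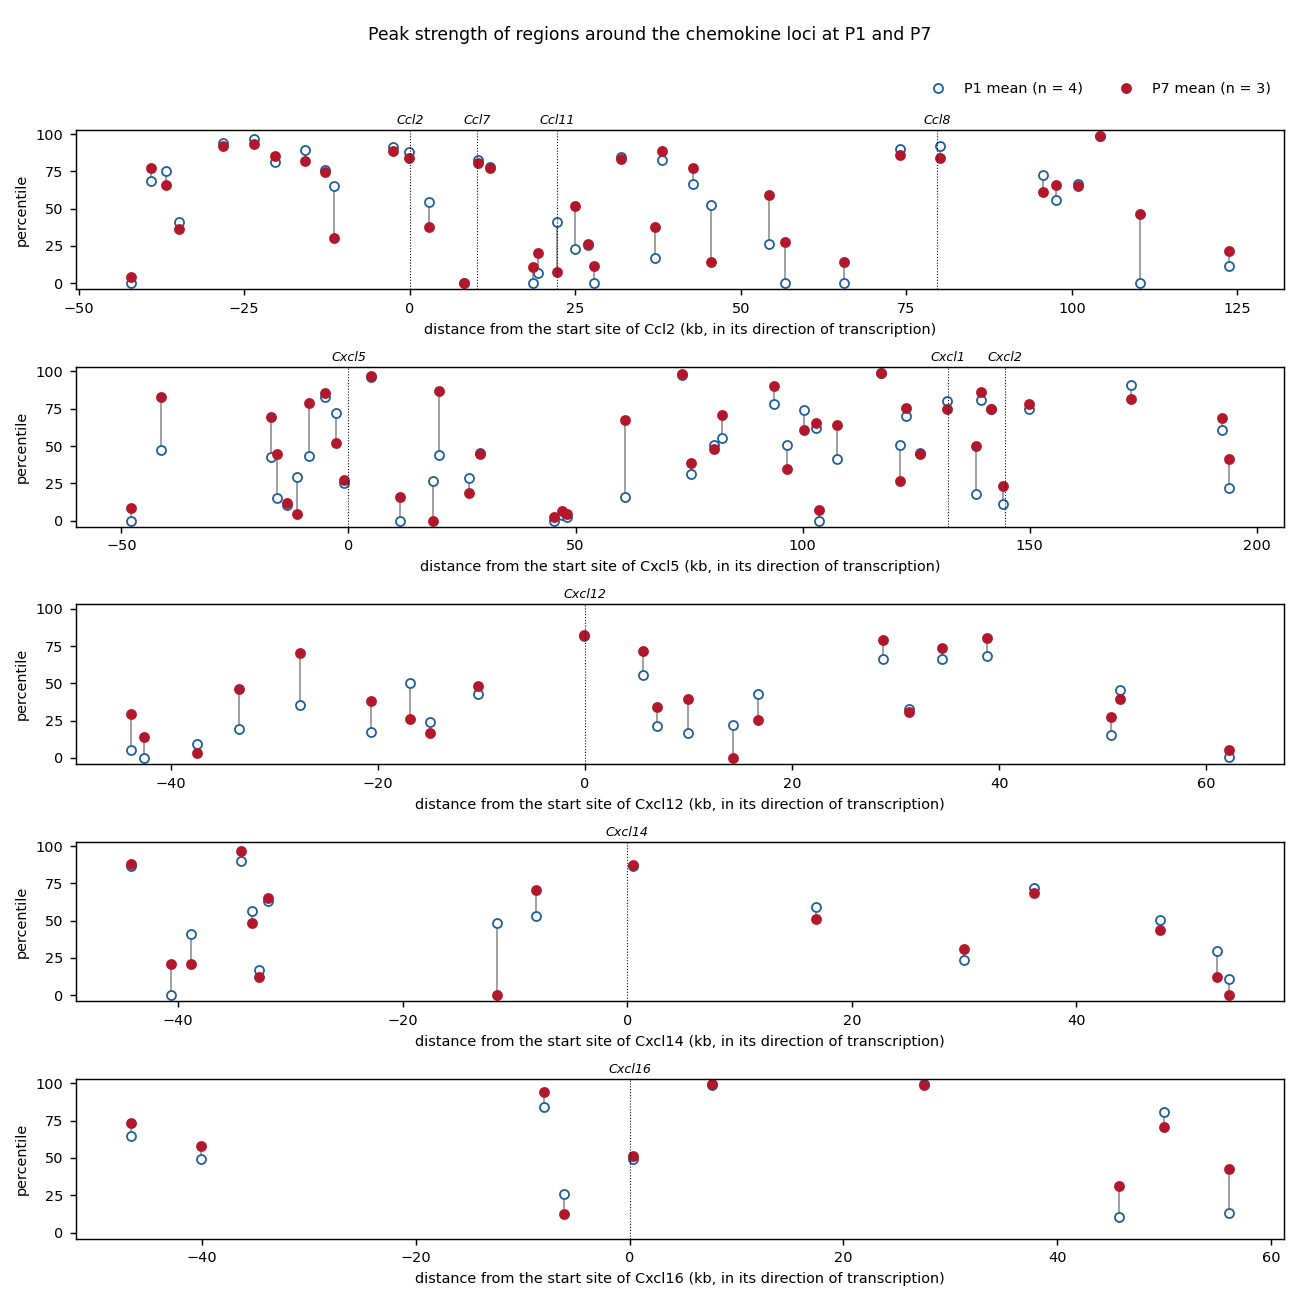
Mean percentile of each peak region at P1 (open circles, n = 4) and P7 (filled circles, n = 3) along the 5 chemokine loci, by distance from the start site of the named gene in kb, with dotted lines at the members' start sites and grey lines that join both means of a region. A region at 0 had no peak in any sample of that passage.

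In the Ccl cluster, 8 of 37 tested regions were stronger and 6 weaker, and with an equal number of peaks per sample 3 of 32 were stronger and 13 weaker. In this cluster 3 regions had no peak in any P1 sample and a peak in every P7 sample. The strongest of them lay 30619 bases downstream of the Ccl8 start site (chr11:82145471-82146137, between genes), with no peak at P1 or P3, 0 to 17.8 at P5 and 38.3 to 55.5 at P7. Another lay 3569 bases before the Ccl11 start site (chr11:82053994-82054533, between genes), with percentiles of 28.0 to 47.5 at P3, 14.9 to 44.7 at P5 and 5.91 to 15.0 at P7, and its mean was highest at P3, the passage with the lowest Ccl11 RNA. The last lay 22866 bases before Ccl8 (chr11:82092087-82092551, between genes), at 2.78 to 46.9 at P7. Over all regions 7.25% were gained in this way and 1.22% lost. With an equal number of peaks per sample, the region after Ccl8 was still at 0 at P1 and at 11.5 to 30.8 at P7, whereas the region before Ccl11 had no peak in any P7 sample and the last no longer one in every P7 sample.

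The 200 bases around the summits of the first 2 are shown (chr11:82145805-82146004 and chr11:82054184-82054383, mm10, + strand). With an equal number of peaks per sample only the first of them was still gained.

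Region 30619 bases after Ccl8: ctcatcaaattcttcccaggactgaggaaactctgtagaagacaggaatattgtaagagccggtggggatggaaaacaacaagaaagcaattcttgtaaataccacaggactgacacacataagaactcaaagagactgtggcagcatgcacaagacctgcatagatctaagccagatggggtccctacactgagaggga

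Region 3569 bases before Ccl11: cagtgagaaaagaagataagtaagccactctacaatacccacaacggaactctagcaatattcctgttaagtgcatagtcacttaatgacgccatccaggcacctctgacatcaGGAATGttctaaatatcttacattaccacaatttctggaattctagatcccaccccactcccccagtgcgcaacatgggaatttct

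The latter holds a TEAD match, at bases 115 to 120 of the window, and the former holds no searched motif. TEAD letters occurred in 20.3% of 217581 windows of this length around all regions, and AP-1 letters, absent from both, in 24.5%. A region 23214 bases after the Ccl11 start site weakened from 48.0 to 60.5 at P1 to 13.6 to 15.9 at P7, and another 11499 bases before Ccl2 from 61.7 to 70.5 to 18.8 to 49.0, with no peak in the 3 samples of P3. Both were separate between P1 and P7 (exact permutation p = 0.0286 each), the smallest possible, and both were also lower with an equal number of peaks per sample.

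At the Cxcl5, Cxcl1 and Cxcl2 locus, 8 of 43 regions were stronger and 5 weaker, against 5 and 7 of 36 with an equal number of peaks per sample. A region 60834 bases after the Cxcl5 start site went from 0 to 29.9 at P1 to 56.4 to 79.0 at P7, and 1 at 19964 bases after it from 36.2 to 55.1 to 80.5 to 92.9. A neighbour of the latter, 18541 bases after Cxcl5, was lost, from 18.8 to 36.2 at P1 to no peak at P7. With an equal number of peaks both gains remained without overlap, and the lost region was no longer separate.

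Around Cxcl12, 4 of 22 regions were stronger and 2 weaker, against 2 and 2 of 17 with an equal number of peaks per sample. The region 27454 bases before its start site went from 27.1 to 47.4 at P1 to 62.4 to 77.7 at P7, and 1 at 33380 bases before it from 9.48 to 29.3 to 41.3 to 51.7, while Cxcl12 RNA fell. The region 14332 bases after the start site, beyond the gene's end, was lost, from 7.13 to 39.6 to no peak at P7 (exact permutation p = 0.0571). With an equal number of peaks the first 2 of these regions were still stronger without overlap, and the last was not separate. Around Cxcl14, 1 of 16 regions was stronger and 1 weaker, against 1 and 3 of 13 with an equal number of peaks, and the weaker 1 by the first ranking, 11618 bases before the start site (chr13:56307911-56308428, between genes), was lost, from 38.6 to 56.8 at P1 to no peak at P7, and was lost by both rankings. The windows around the summits of these lost regions (chr6:117182382-117182581 and chr13:56307952-56308151, + strand) are shown for the pair of genes with the largest RNA change.

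Region 14332 bases after Cxcl12: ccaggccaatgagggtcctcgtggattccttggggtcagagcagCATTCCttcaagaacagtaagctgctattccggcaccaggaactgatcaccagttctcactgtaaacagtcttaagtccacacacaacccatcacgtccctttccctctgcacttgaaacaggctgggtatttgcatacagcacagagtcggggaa

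Region 11618 bases before Cxcl14: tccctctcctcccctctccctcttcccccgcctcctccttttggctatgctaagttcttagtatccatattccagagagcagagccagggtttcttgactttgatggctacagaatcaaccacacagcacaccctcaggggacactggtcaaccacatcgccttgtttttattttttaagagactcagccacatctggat

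The Cxcl12 window holds a TEAD match on the reverse strand, at bases 45 to 50, and the Cxcl14 window holds none of the searched motifs. Around Cxcl16, 4 of 10 regions were stronger and 1 weaker, against 2 and 1 of 10 with an equal number of peaks. Among the 4 was a region in Pelp1, 56139 bases after the Cxcl16 start site, at 10.3 to 18.5 at P1 and 29.5 to 53.2 at P7, which was not separate with an equal number of peaks.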

How the data were processed

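Per the labels, RNA-seq and ATAC-seq libraries of mouse skin fibroblasts were analysed, and methylation libraries were not used here. The authors' RNA files hold raw counts per gene for each library. By the methods and the submitters' processing notes, reads were trimmed (Trimmomatic 0.39), aligned to mm10 (HISAT2 2.2.1) and counted without strand (HTSeq 0.12.4). ATAC reads were aligned with Bowtie2 2.3.5.1, kept at a mapping quality over 10, and peaks were called in each sample with MACS2. The deposited peak files give each peak's fold enrichment, a ratio over the background of its sample. They also hold the -log10 p and -log10 q that the authors obtained from MACS2.

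Separate edgeR 4.0.16 models were fitted per experiment (R 4.3.3: filterByExpr, TMM, quasi-likelihood test, all groups of the experiment in 1 fit, Benjamini-Hochberg over all genes tested), and DESeq2 1.42.0 was an alternative. CPM used the TMM-scaled library sizes, and alikeness used log2 CPM with a prior count of 2. Lines that name no gene were left out. Peak regions merged peaks present in over 60% of the replicates of a passage, and groups of 4 and 3 samples were compared by a two-sided exact permutation test of the mean over its 35 arrangements (Python 3.11.15). Peak files give no depth, so no counting interval was set. Scripts were tested on simulated data.

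The members and the other lists were chosen with earlier results of these data known. All 10 members were counted in every comparison. Of the other lists (other ligands, receptors, processing enzymes, upstream regulators), at most the 4 called genes of largest log2 fold change were named per comparison, together with Ccl12, the targeted genes and the 2 genes most alike to each member. A result for 1 listed gene is not reported here. Macrophage, endothelial, keratinocyte, lymphocyte and mast cell, and fibroblast markers were summed as a check of the cultures. Named peak regions were taken from those gained or lost and the 3 of each locus with the largest difference. Alternatives were another test, scaling, filter, replicate block, set of samples, peak measure and window, and leaving out each library.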

Additional observations from a re-analysis of the deposited data

Results flagged for a closer look

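In the groups of 4 samples, 50 sets of member values were checked for a sample far from the others, and 4 were found, where chance gives about 1 in 20. Cxcl1 at P3 was at 5.87 CPM in replicate 3, with the nearest library at 3.88 CPM. Among the P1 promoter peaks, replicate 1 was low for Ccl2 (percentile 83.4, nearest 88.9) and for Cxcl1 (72.8, nearest 81.9), and replicate 4 was low for Cxcl14 (83.4, nearest 87.6).

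Hairpins against the same gene differed in 5 member values when tested directly with edgeR (Benjamini-Hochberg adjusted). Ccl11 was lower with Tead1_sh4 than with Tead1_sh3 by a log2 fold change of -1.45 (adjusted p = 0.00154). With Atf3_sh6 against Atf3_sh5, the log2 fold change was -1.85 for Ccl11 (adjusted p = 0.000353), 2.28 for Ccl8 (adjusted p = 0.000152), -1.36 for Cxcl14 (adjusted p = 5.8e-05) and -1.75 for Cxcl5 (adjusted p = 4.3e-06). In each of these 5, all 3 libraries of one hairpin lay apart from all 3 of the other.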

How the results depend on the processing

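Of 223 alternative values of the 14 counts, 201 stayed within 1.5 times the reported count and 22 did not. DESeq2, and edgeR with DESeq2 size factors, gave the reported number of members in each RNA comparison. Without each library in turn, the number of members called ranged from 0 to 3 for P5 against P3, from 1 to 2 for Tead1_sh3, from 0 to 1 for Tead1_sh4 and from 1 to 3 for Atf3_sh5. With only the compared groups fitted, P5 against P3 had 1 (Cxcl5). For Tead1_sh4, requiring at least 10 counts in every library left 0, since Cxcl16 was then not tested. Where E2f4_OE or its control kept 1 library, that library was assumed to vary like the other group.

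The labels do not say that a replicate number marks a shared culture, and samples were not treated as paired. For methylation the paper speaks of independent series of samples followed over the passages. It does not tie the replicate numbers of the RNA libraries to such series. In the passage series, deviations of same-numbered libraries were correlated from -0.262 to 0.276 (median 0.0939), and those of other pairs from -0.318 to 0.245 (median -0.0217). With the replicate block the count for Tead1_sh4 was 0, and no other count of members moved by over 1.5 times.

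Of the promoters, 2 were separate. With a window of 500 bases or 2000 bases 1 remained (Ccl8), with fold enrichment 1 (Cxcl12), with summits in place of whole peaks (chosen after seeing the data) 1 (Ccl8), and with an equal number of the strongest peaks per sample 5, all lower. Without each sample the count ranged from 2 to 6, with 5 lacking P1 replicate 1 and 6 lacking P7 replicate 2. The shares of all promoters under these alternatives are not given here. The difference for Cxcl12 was 0.731 with a window of 2000 bases, in the opposite direction, because the upstream peak then counted at P7 too. Of the regions, 40 were separate; 20 were with 10000 bases around the members (of 68 regions), and 43 to 57 without each sample. Low counts limit Cxcl2 and, in the E2f4 experiments, Ccl8 and Ccl11.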

Other observations

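Ppbp, an ELR ligand encoded in the Cxcl5 locus and known mainly from platelets, was at a mean of 0.0155 CPM at P1, 0.240 CPM at P3, 0.466 CPM at P5 and 7.71 ± 1.39 CPM at P7 (SD, n = 4). Cxcl3, a further Cxcr2 ligand of that locus, was at 0.299 CPM at P1 and 1.80 CPM at P7. Il6, a cytokine of the secretory phenotype, was at 2.58 ± 1.32 CPM at P1 and 11.9 ± 3.58 CPM at P7 (SD, n = 4).

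Xist, the RNA of the inactive X chromosome, was chosen after its values were seen. It ranged from 762 to 854 CPM at P1, 547 to 707 CPM at P3, 352 to 625 CPM at P5 and 194 to 368 CPM at P7.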
